A study of Mus musculus with 6 samples.

Results

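The EGF receptor family and its ligands were followed in mouse lung through 10 genes: the receptors Egfr, Erbb2 and Erbb3, the Egfr ligands Areg, Ereg, Hbegf, Tgfa and Btc, the neuregulin Nrg1, and the feedback inhibitor Errfi1. They were taken by symbol from the 40842 named genes of each library's table, and all 10 were found. RNA came from whole lung of wild-type female C57BL/6N mice, in 3 untreated libraries (control 1 to 3) and 3 libraries (irradiated 1 to 3) of mice given 20 Gy of 9 MeV electrons as a single dose, all labelled 100 days, which the design text counts from irradiation. Age, the exposed body region and whether each library is a separate mouse are not stated in the labels, so the spread between libraries may be technical. The comparison asks whether the RNA of this repair pathway differs between irradiated and untreated lung at that late time.

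EGF family ligands are made as membrane proteins, are cut loose by surface proteases and bind receptors of the ErbB family, which pair up and switch on the Ras to ERK kinase cascade. Egfr is the receptor of EGF, amphiregulin, TGF-α and HB-EGF. Erbb2 has no known ligand of its own and serves as a partner, and Erbb3 binds neuregulins and has a weak kinase. In lung the pathway is known for driving epithelial spread, survival and repair after injury. Errfi1, also called Mig6, is induced by the pathway and blocks the receptor kinase.

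The Areg and Errfi1 promoters are shown because these 2 genes had the largest positive log2 changes of the family and share a short element, and Tgfa is shown as a ligand without it. Each line gives the 120 bases before the transcription start on the gene's strand, from RefSeq (GRCm38.p6); capitals mark TGACGTCA, the cAMP response element, and TATAAA, the TATA box.
Areg, chr5:91139479-91139598, + strand: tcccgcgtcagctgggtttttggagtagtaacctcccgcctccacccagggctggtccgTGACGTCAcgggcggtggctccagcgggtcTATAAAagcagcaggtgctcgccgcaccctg
Errfi1, downstream start, chr4:150854950-150855069, + strand: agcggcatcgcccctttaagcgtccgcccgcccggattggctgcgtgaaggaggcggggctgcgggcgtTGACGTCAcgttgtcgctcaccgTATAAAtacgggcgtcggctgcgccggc
Tgfa, chr6:86195102-86195221, + strand: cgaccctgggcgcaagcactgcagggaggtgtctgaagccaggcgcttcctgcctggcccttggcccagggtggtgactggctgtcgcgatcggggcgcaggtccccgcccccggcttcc
In Areg the first base of TGACGTCA lies 61 bases and that of TATAAA 31 bases before the start, and in Errfi1 these distances are 51 and 28 bases. Windows of 250 bases before to 50 after a start were searched on both strands for both elements, for the AP-1 site TGANTCA and for the GC box GGGCGG. Matches to different motifs did not overlap. GGGCGG was found in windows of Egfr, Areg, Tgfa and Errfi1, and in 35.7% of all windows. TGACGTCA was present in 1.79% of 32851 RefSeq mouse windows, TATAAA in 13.6%, and both together in 56 windows. For 6 of the 10 genes 7 windows were searched (Egfr, Erbb2, Areg, Tgfa, Btc and 2 for Errfi1). Of these 7, only those of Areg and the downstream Errfi1 start held TGACGTCA. None of the 7 held TGANTCA, which 7.81% of all windows did. The other members, Hbegf among them, were not searched, so nothing is said of their promoters. A match describes the letters of the window and not binding of a factor. The promoters shown were chosen after the values were seen, and a link between the element and the changes was not tested. The Errfi1 gene assembled from each library began 1274 bases downstream, the distance between the 2 RefSeq starts, only in control 1 and control 2. In the irradiated libraries and control 3 it began at the annotated start. Control 1 and control 2 also had the lowest Errfi1 coverage, 45.3 and 52.9 reads per base, against 75.7 to 201 in the other libraries. A link between coverage and the assembled start was not tested.

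By level, in FPKM, that is mapped fragments scaled for transcript length and library size, Errfi1 was the highest of the 10 genes and Ereg the lowest in every library. The ligand with the highest level was Hbegf in each library. Areg, Tgfa, Nrg1 and Egfr were higher in all 3 irradiated libraries than in any control, and Hbegf was lower in all 3. With limma over 13908 genes, however, none of the 9 members tested passed an adjusted p of 0.05 (0 of 9, against 0.180% of all genes, or 0.0647% higher and 0.115% lower). At an unadjusted p under 0.05 stood 4 of the 9 members, 3 with higher and 1 with lower levels, against 17.7% of all genes (7.41% higher and 10.3% lower). The median log2 change of the 9 was 0.28, and that of all genes tested was −0.03. A log2 change here is irradiated minus control on log2(FPKM + 1), which understates differences of genes near 1 FPKM. In whole tissue a lower share of cells that carry a transcript and less of that transcript per cell cannot be told apart.

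**Figure D1:**
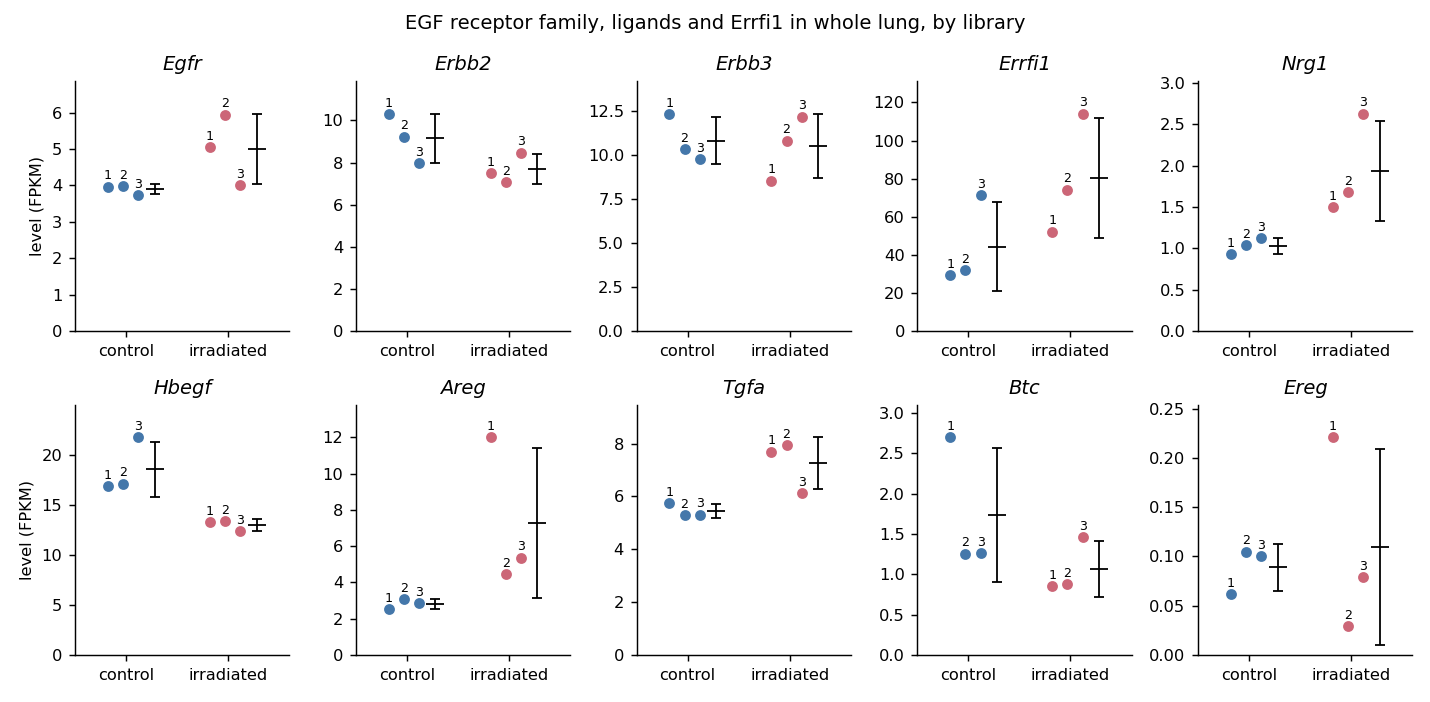
Level in FPKM (vertical axis, from 0, with its own scale per gene) of the 10 genes in the 3 control (blue) and 3 irradiated (red) libraries; points carry the replicate number and black marks are mean ± SD (n = 3). Areg, Tgfa, Nrg1 and Egfr have all red points above the blue points, and Hbegf has all red points below them.

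The depth implied by the ratio of FPKM to coverage was 5.11 to 10.4 Gb of aligned sequence per library, with irradiated 2 the deepest. As the tables hold no counts, no counting interval can be given. The labelled tissue was checked with Sftpc, the surfactant gene that defines lung alveolar type 2 cells, which was at 8741 to 16828 FPKM in the 6 libraries. Irradiated 2 stood apart from the other libraries, with the highest neutrophil (4758 FPKM) and red cell (6251 FPKM) marker sums. Without it the log2 changes were 1.26 for Areg, −0.50 for Hbegf, 0.29 for Tgfa, 0.57 for Nrg1, 0.17 for Egfr, −0.17 for Erbb2, −0.32 for Btc and 0.90 for Errfi1, each with the sign of the value from all 6 libraries.

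Among receptors, Egfr stood at 3.97, 3.98 and 3.74 FPKM in the controls, each time in the order of replicates 1 to 3, and the irradiated libraries held 5.06, 5.94 and 4.02 FPKM. The groups did not overlap, but irradiated 3 lay next to the controls. The group means were 3.90 ± 0.133 and 5.01 ± 0.963 FPKM (SD, n = 3 each), a log2 change of 0.28 ± 0.14 (SE; 95% interval −0.05 to 0.61; limma adjusted p = 0.342).

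Erbb2, the ligandless partner, was at 10.3, 9.23 and 7.96 FPKM in the controls and at 7.52, 7.08 and 8.47 FPKM in the irradiated libraries. Irradiated 3 lay above control 3, so the groups overlapped. Its log2 change was −0.22 ± 0.12 (SE; 95% interval −0.50 to 0.06; limma adjusted p = 0.374). It was −0.14 without control 1 and −0.11 with the libraries scaled to a common sum. Erbb2 shares 9 bases with Mien1 on the opposite strand, a gene at 17.4 to 26.6 FPKM.

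Erbb3, the neuregulin receptor, was at 12.3, 10.3 and 9.77 FPKM in the controls and at 8.54, 10.8 and 12.2 FPKM in the irradiated libraries. The groups spanned nearly the same range. Its log2 change was −0.04 ± 0.15 (SE; 95% interval −0.39 to 0.30; limma adjusted p = 0.909), and its sign depended on the scaling of the libraries. The summed level of the 3 receptors was 21.5 to 26.6 FPKM in the controls and 21.1 to 24.6 FPKM in the irradiated libraries. Within a library, Egfr stood at 0.386, 0.431 and 0.470 of the Erbb2 level in control 1 to 3 and at 0.673, 0.839 and 0.475 in irradiated 1 to 3. This ratio does not depend on scaling between libraries; the pair was chosen after its values were seen and was not tested, and the lowest irradiated ratio was next to the highest control ratio.

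Of the Egfr ligands, Areg (amphiregulin) had the largest positive log2 change. It was at 2.51, 3.06 and 2.86 FPKM in the controls and at 12.0, 4.43 and 5.37 FPKM in the irradiated libraries. All 3 irradiated libraries lay above the controls, with irradiated 1 far above the other two. The means were 2.81 ± 0.279 and 7.27 ± 4.12 FPKM (SD, n = 3 each), a ratio of means of 2.59 and a log2 change of 1.01 ± 0.31 (SE; 95% interval 0.26 to 1.76; limma adjusted p = 0.188). Without irradiated 1 the ratio of means was 1.75 and the log2 change 0.63.

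Hbegf, the heparin-binding ligand of Egfr, was the family member with the smallest limma p and the 1 member tested whose irradiated libraries all lay below the controls. It was at 16.8, 17.1 and 21.7 FPKM in the controls and at 13.2, 13.3 and 12.3 FPKM in the irradiated libraries. The 3 irradiated values lay close together and control 3 was the highest of the 6. The means were 18.6 ± 2.75 and 12.97 ± 0.561 FPKM (SD, n = 3 each), with a log2 change of −0.48 ± 0.11 (SE; 95% interval −0.75 to −0.20; limma adjusted p = 0.121).

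Tgfa (TGF-α), an Egfr ligand made by epithelial cells and macrophages, was at 5.75, 5.29 and 5.31 FPKM in the controls and at 7.69, 7.94 and 6.14 FPKM in the irradiated libraries. The groups did not overlap, and irradiated 3 was nearest to the controls. Its log2 change was 0.35 ± 0.12 (SE; 95% interval 0.07 to 0.62; limma adjusted p = 0.205).

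Btc (betacellulin), which binds Egfr and Erbb4, was at 2.697, 1.26 and 1.26 FPKM in the controls and at 0.853, 0.878 and 1.46 FPKM in the irradiated libraries. The groups overlapped, with control 1 the highest and irradiated 3 above the other two controls. Its log2 change was −0.38 ± 0.24 (SE; 95% interval −0.94 to 0.18; limma adjusted p = 0.445); on log2(FPKM + 0.1) it was −0.61, and without control 1 it was −0.14.

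Ereg (epiregulin) had a mean below the 1 FPKM needed for the test. It was listed at 0.0618, 0.105 and 0.1003 FPKM in the controls and at 0.221, 0.0288 and 0.0790 FPKM in the irradiated libraries, and the groups overlapped. Its deposited coverage was 0.299 to 1.28 reads per base, against 15.7 to 69.8 for its neighbour Areg. A two-sided exact permutation test of log2(FPKM + 1) gave p = 0.9, in a design whose smallest p is 0.1. A stretch of 319 bases of Ereg overlaps Gm19610 on the opposite strand, a gene listed at 0.0303 to 0.397 FPKM, and the strand setting is not given in the sources used here.

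Ereg, Areg and Btc are neighbours on chromosome 5, and no difference between their changes was tested. Areg was higher in 3 of 3 irradiated libraries than in any control, while Ereg lies 45.9 kb upstream of Areg and was close to 0 in both groups. Btc lies 208.8 kb beyond Areg, and its groups overlapped. Epgn (epigen), the family ligand next to Ereg on its other side, was listed at 0 to 0.0906 FPKM over the 6 libraries.

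The summed level of the 5 Egfr ligands overlapped between groups: controls held 27.9, 26.8 and 31.3 FPKM, irradiated libraries 34.0, 26.6 and 25.4 FPKM. Hbegf held 60.4%, 63.8% and 69.5% of the sum in the controls and 39.0%, 50.1% and 48.6% in the irradiated libraries. Areg held 9.00%, 11.4% and 9.14% in the controls and 35.3%, 16.7% and 21.2% in the irradiated libraries. Tgfa held 17.0% to 20.7% in the controls and 22.6% to 29.8% in the irradiated libraries. For these 3 ligands the shares of the groups did not overlap. Within a library Areg stood at 0.149, 0.179 and 0.132 of the Hbegf level in control 1 to 3 and at 0.906, 0.332 and 0.436 in irradiated 1 to 3, a ratio that scaling between libraries leaves as it is. These shares and ratios were chosen after the values were seen and are given without a test.

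**Figure D2:**
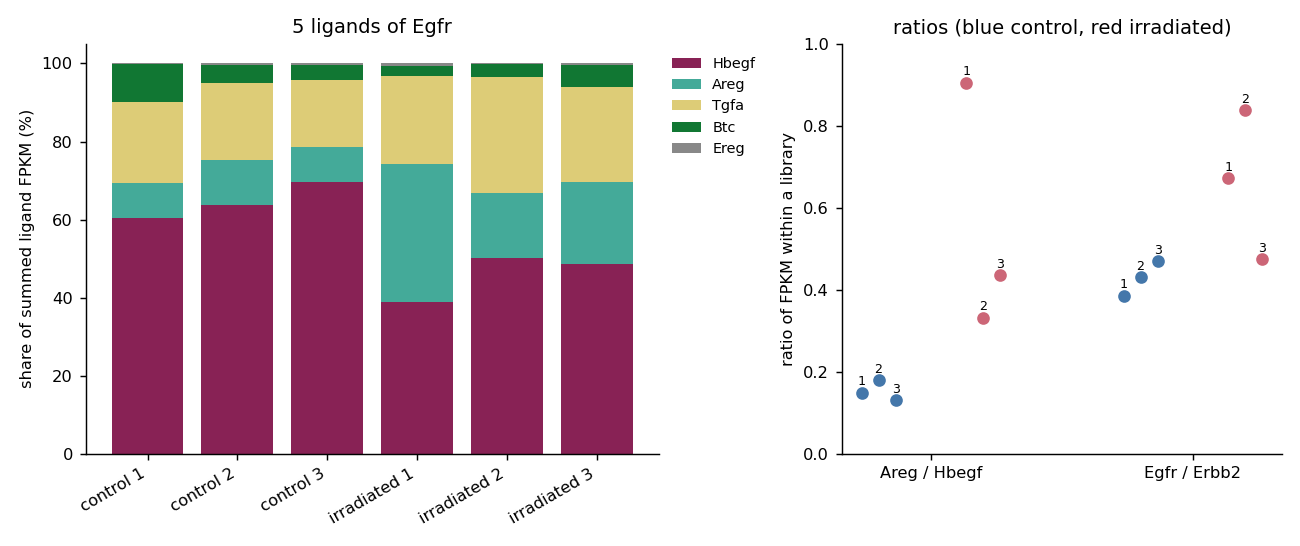
Left: share (percent) of the summed FPKM of 5 Egfr ligands in each library. Right: ratio of FPKM within a library for Areg over Hbegf and for Egfr over Erbb2, with replicate numbers; Areg over Hbegf is 0.132 to 0.179 in controls (blue) and 0.332 to 0.906 in irradiated libraries (red).

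Nrg1 (neuregulin), the ligand of Erbb3 and Erbb4 in this set, was at 0.929, 1.04 and 1.13 FPKM in the controls and at 1.496, 1.68 and 2.63 FPKM in the irradiated libraries. The groups did not overlap, and irradiated 3 was the highest. The means were 1.03 ± 0.0983 and 1.93 ± 0.607 FPKM (SD, n = 3 each), a ratio of means of 1.87 and a log2 change of 0.51 ± 0.17 (SE; 95% interval 0.10 to 0.92; limma adjusted p = 0.209). On log2(FPKM + 0.1) the log2 change was 0.81. Deposited coverage of Nrg1 was 2.65 to 7.34 reads per base. Without irradiated 3 the ratio of means was 1.54.

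The feedback inhibitor Errfi1 was at 29.6, 32.2 and 71.3 FPKM in the controls and at 52.3, 74.3 and 114 FPKM in the irradiated libraries. Control 3 lay above irradiated 1, so the groups overlapped. The means were 44.3 ± 23.4 and 80.2 ± 31.4 FPKM (SD, n = 3 each), a log2 change of 0.89 ± 0.41 (SE; 95% interval −0.10 to 1.87; limma adjusted p = 0.320). The ratio of means was 1.81, and with each library left out it ran from 1.43 (without irradiated 3) to 2.60 (without control 3), with log2 changes of 0.60 and 1.28. In every library Errfi1 exceeded the summed level of the 3 receptors.

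**Figure D3:**
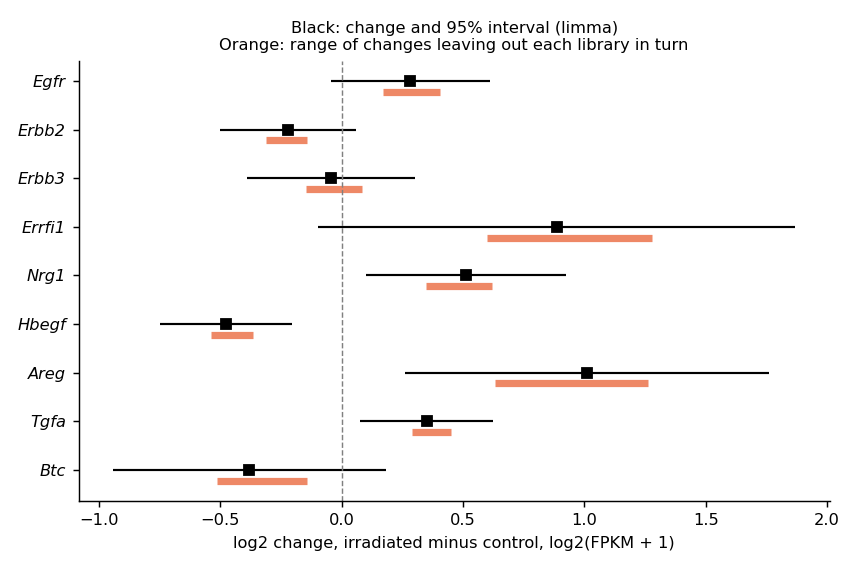
Log2 change (irradiated minus control, log2(FPKM + 1)) of the 9 members tested: black squares and lines are the limma estimate and its 95% interval, and orange bars are the range of changes when each of the 6 libraries is left out in turn. The intervals of Areg, Tgfa, Nrg1 and Hbegf exclude 0 before adjustment over all genes, and the orange bar of Erbb3 crosses 0.

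Ordered by their levels over the 6 libraries, Errfi1 (29.6 to 114 FPKM) and Hbegf (12.3 to 21.7 FPKM) were each separate from the gene below. Erbb3 (8.54 to 12.3 FPKM) and Erbb2 (7.08 to 10.3 FPKM) overlapped, as did Erbb2 and Tgfa (5.29 to 7.94 FPKM). Tgfa also overlapped Egfr (3.74 to 5.94 FPKM). Areg (2.51 to 12.0 FPKM) overlapped all 4 of these and, at its lowest library, Nrg1 and Btc. Nrg1 (0.929 to 2.63 FPKM) and Btc (0.853 to 2.697 FPKM) overlapped, and Ereg lay below both. Counting the groups that do not overlap, 5 of the 9 members tested separated the libraries, 4 with irradiated above and 1 with irradiated below, against 24.5% of all genes tested (9.91% above and 14.6% below).

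In coordinates of the deposited tables (GRCm39), Egfr lies on chromosome 11 from 16700153 to 16868158 and Erbb2 on the same chromosome from 98303310 to 98328542. Erbb3 lies on chromosome 10 from 128403392 to 128425504, Tgfa on chromosome 6 from 86172020 to 86252726, Nrg1 on chromosome 8 from 32299493 to 33381858, Errfi1 on chromosome 4 from 150938253 to 150953346, and Hbegf on chromosome 18. Ereg (91222476 to 91241508), Areg (91287458 to 91296291) and Btc (91505120 to 91550853) are neighbours on chromosome 5. Each value stands for the whole gene, with exons, introns and UTRs not told apart.

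The remaining family genes were at low levels. Of Erbb4, Egf, Epgn, Nrg2, Nrg3 and Nrg4 only Nrg2, a neuregulin, reached the filter. It was at 1.66 ± 0.190 FPKM in control and 1.11 ± 0.167 FPKM in irradiated lung (SD, n = 3 each; limma adjusted p = 0.271), and its irradiated libraries all lay below the controls. Egf itself was listed at 0.12 to 0.304 FPKM and Nrg4 at 0.312 to 0.540 FPKM. Erbb4, the fourth receptor of the family, was listed at 0.000344 to 0.00819 FPKM in the 6 libraries.

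Genes that release the ligands, counted together with the inhibitor Timp3, were described next. Of 11 genes of ligand shedding, 10 were tested, 0 passed over all genes and 3 stood at an unadjusted p under 0.05 by limma, all with higher levels, where 17.7% of all genes did so and 7.41% with higher levels; the median log2 change was 0.14. Timp3, a protease inhibitor known to block the sheddase ADAM17, was at 169, 180.1 and 189 FPKM in the controls and at 393, 422 and 250 FPKM in the irradiated libraries. The groups did not overlap (log2 change 0.95 ± 0.20 SE, limma adjusted p = 0.0983), and Timp3 passed without irradiated 3 (limma adjusted p = 0.0324). Adam9, a surface metalloprotease, was at 34.8 ± 1.46 against 45.7 ± 6.38 FPKM (limma adjusted p = 0.182) and Adam19 at 10.8 ± 0.218 against 13.3 ± 1.79 FPKM (0.267). The protease Bace1 was at 5.11 ± 1.93 against 6.32 ± 0.804 FPKM (limma adjusted p = 0.555). Adam17, the main sheddase of Areg, Tgfa and Hbegf, was at 12.0 ± 0.344 against 12.4 ± 1.23 FPKM (log2 change 0.04, 95% interval −0.19 to 0.26), and was named after its values were seen.

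Among 15 genes that relay the signal to ERK, all tested, 0 passed, 3 stood at an unadjusted p under 0.05 with higher and 1 with lower levels (all genes: 7.41% and 10.3%), and the median log2 change was 0.02. Mapk3, which encodes the kinase ERK1, was at 121, 119 and 124 FPKM in the controls and at 89.1, 87.0 and 92.0 FPKM in the irradiated libraries. The 2 groups were far apart relative to their spread (log2 change −0.44 ± 0.08 SE; limma adjusted p = 0.0798). The exchange factor Sos2 (8.79 ± 0.790 against 11.3 ± 1.42 FPKM), the phosphatase Ptpn11 (25.7 ± 1.26 against 30.1 ± 2.04 FPKM) and the adaptor Grb2 (29.2 ± 1.34 against 33.5 ± 0.642 FPKM) had irradiated libraries above the controls, with limma adjusted p from 0.232 to 0.259.

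In the list of receptor turnover and inhibitors 15 genes were tested, 0 passed, 1 stood at an unadjusted p under 0.05 (all genes: 17.7%), and the median log2 change was −0.04. That gene was Ptpn1, a phosphatase that acts on Egfr, at 17.6 ± 1.602 against 25.8 ± 4.13 FPKM (limma adjusted p = 0.129). None of the Cbl ubiquitin ligases, which mark Egfr for degradation, passed the test: Cblb was at 6.36 ± 1.53 against 8.49 ± 0.904 FPKM, Cbl at 7.38 ± 1.75 against 9.70 ± 1.66 FPKM and Cblc at 4.24 ± 0.768 against 3.34 ± 1.04 FPKM (limma adjusted p from 0.301 to 0.483).

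Of 26 ERK feedback and early response genes, 22 were tested and 0 passed. By limma 4 stood at an unadjusted p under 0.05 with higher and 2 with lower levels (all genes: 7.41% and 10.3%), and the median log2 change was 0.09. Dusp4, a phosphatase that switches off ERK, was at 4.06, 3.48 and 2.98 FPKM in the controls and at 6.31, 5.77 and 6.07 FPKM in the irradiated libraries (log2 change 0.65 ± 0.12 SE; limma adjusted p = 0.0793), with no overlap. Spred2, an inhibitor of Ras signalling, was at 6.17 ± 0.331 against 8.28 ± 0.246 FPKM (limma adjusted p = 0.116). Ier3, an early response gene, was at 93.5 ± 5.12 against 71.6 ± 8.99 FPKM (limma adjusted p = 0.180), and Etv5, a transcription factor of the pathway that also marks alveolar type 2 cells, at 41.0 ± 0.497 against 30.8 ± 5.41 FPKM (0.188). Dusp1, another ERK pathway phosphatase, is named after its values were seen. It was at 94.4, 76.9 and 217 FPKM in the controls and at 185, 326 and 216 FPKM in the irradiated libraries. Its groups overlapped at control 3, the control in which Errfi1 was also highest. Fos (39.1 to 153 against 60.4 to 148 FPKM), Fosb, Egr1, Egr2, Egr3, Junb, Ier2 and Atf3 overlapped between groups. Among the controls they were likewise highest in control 3, and they too were named after their values were seen. The relative of Etv5, Etv4, was below the filter and is named after its values were seen: it was listed at 0.154, 0.142 and 0.0907 FPKM in the controls and at 1.19, 0.657 and 0.534 FPKM in the irradiated libraries.

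**Figure D4:**
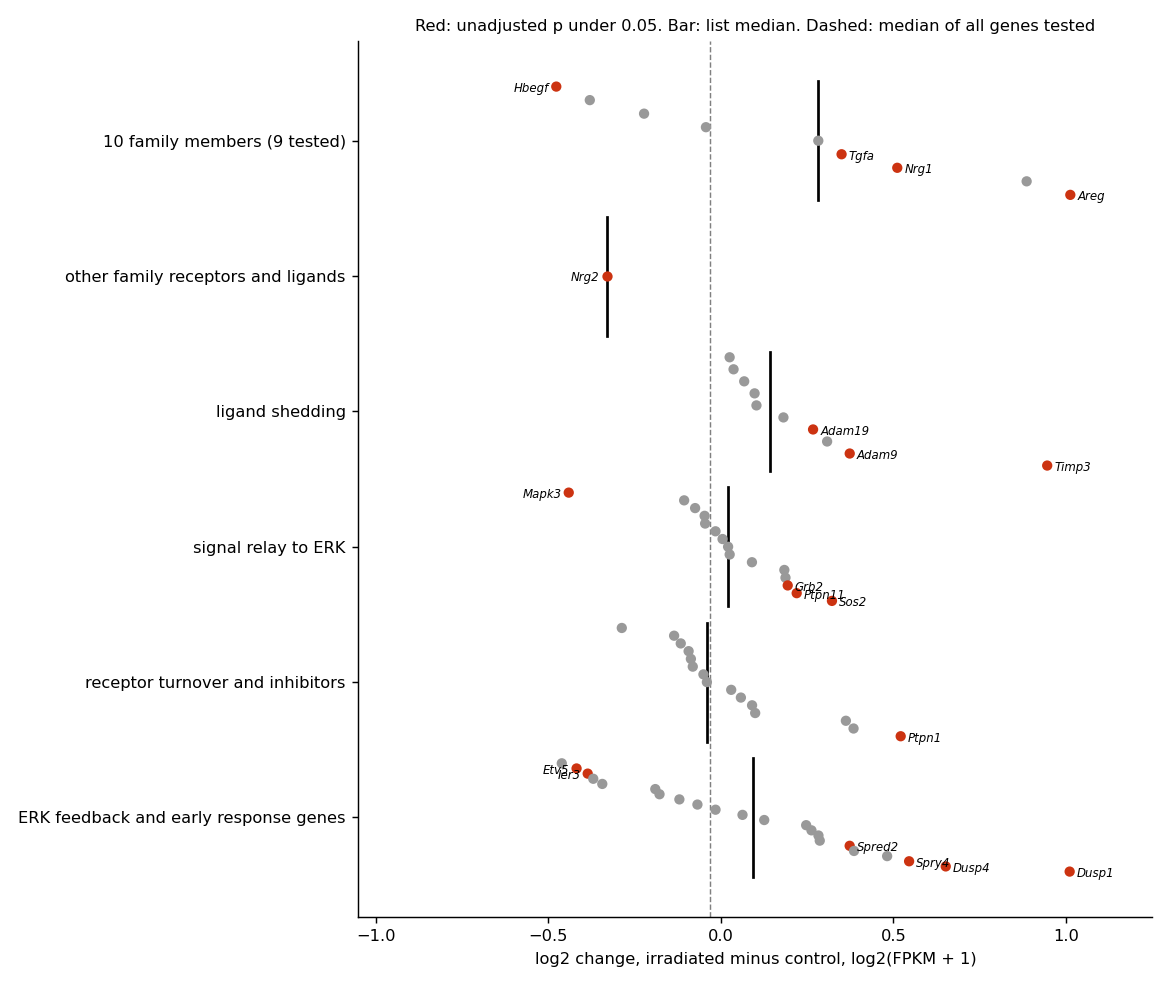
Log2 change (irradiated minus control, log2(FPKM + 1)) of each tested gene in the family and in 5 pathway lists; red points stand at an unadjusted p under 0.05, the bar is the list median and the dashed line the median of all genes tested (−0.03). No point passed after adjustment over all genes, and Areg, Dusp1 and Timp3 lie farthest to the right.

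Several sums of cell type markers did not overlap between the groups, and no marker was at 0 in all 6 libraries. The 5 pan-epithelial markers summed to 557 to 601 FPKM in the controls and 469 to 546 FPKM in the irradiated libraries, and the 9 alveolar type 2 markers to 21800 to 24447 against 14337 to 16384 FPKM. Neither sum overlapped between groups. The total FPKM of all named genes did not overlap either, at 321039 to 350820 in the controls and 298352 to 312652 in the irradiated libraries. The marker sums here were not scaled to that total. Of the 5 pan-epithelial markers 0 had a positive log2 change, but 0 separated the groups. Of the 9 type 2 markers 6 had irradiated libraries below the controls, against 14.6% of all genes tested. Sftpc made up most of the type 2 sum, and Sftpa1 (863 to 932 against 847 to 955 FPKM) overlapped. The lower Hbegf and the higher Areg, Tgfa, Nrg1 and Egfr levels thus stood beside lower pan-epithelial and type 2 marker sums. Not every epithelial sum separated the groups. The ciliated markers (6 genes) summed to 267 to 471 against 241 to 318 FPKM and overlapped, as did the sum of the 5 basal markers. The endothelial sum (6 genes, 562 to 728 against 443 to 580 FPKM) also overlapped. So did the smooth muscle and pericyte sum (6 genes, 134 to 218 against 124 to 163 FPKM). The club and secretory markers (6 genes) summed to 32476 to 46461 against 18282 to 29242 FPKM. The alveolar type 1 markers (9 genes) summed to 2661 to 3052 against 2410 to 2646 FPKM. The alveolar fibroblast markers (6 genes) summed to 288 to 332 against 245 to 264 FPKM. The T and NK cell markers (6 genes) summed to 37.4 to 44.7 against 20.9 to 25.4 FPKM. The club, type 1, fibroblast and T and NK sums did not overlap between groups, but Scgb1a1 made up most of the club sum. The type 1 sums of the groups nearly met. Ager, the largest part of the type 1 sum, overlapped (1058 to 1265 against 897 to 1082 FPKM). Of the 9 type 1 genes 3 had a positive log2 change. Gzma (23.4 to 30.9 against 4.33 to 11.5 FPKM) made up most of the T and NK sum in the controls. Irradiated libraries lay below the controls for 1 of the 6 club and 2 of the 9 type 1 genes. They also did for 3 of the 6 fibroblast and 3 of the 6 T and NK genes. Over all genes tested 14.6% did so. Of the fibroblast genes 1, Pdgfra, had irradiated libraries above the controls (32.7 to 37.3 against 38.9 to 45.3 FPKM), as 9.91% of all genes did. Npnt, the largest part of the fibroblast sum, overlapped (119 to 140 against 104 to 128 FPKM). Scgb3a2, Cd3e, Cd4 and Cd8a overlapped, with Cd4 at 1.91 to 2.00 against 1.63 to 4.70 FPKM. The 10 markers of the state between alveolar type 2 and type 1 cells summed to 480 to 633 FPKM in the controls and 541 to 678 FPKM in the irradiated libraries. The 11 monocyte and macrophage markers, cells that can make Areg, Hbegf and Tgfa, summed to 219 to 283 against 368 to 550 FPKM. Chil3 (126 to 175 against 233 to 417 FPKM) was the largest part of this sum. For 6 of these genes all irradiated libraries lay above the controls. For 1, Marco (4.81 to 8.24 against 0.418 to 4.01 FPKM), they lay below. Over all genes tested the shares were 9.91% above and 14.6% below. The 7 neutrophil markers summed to 74.8 to 497 against 218 to 4758 FPKM, highest in irradiated 2, and the 5 red cell markers to 1346 to 1707 against 1441 to 6251 FPKM.

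The 11 markers of type 2 innate lymphoid, regulatory T and mast cells, known sources of Areg, summed to 10.5 to 10.7 FPKM in the controls and 10.9 to 14.0 FPKM in the irradiated libraries. Within this list 4 genes had groups that did not overlap, in both directions, and are named after their values were seen. Over all genes tested 24.5% did not overlap. Foxp3, Ms4a2 and Fcer1a were below the filter of 1 FPKM and were not tested. The regulatory T cell genes Foxp3 (0.115 to 0.160 against 0.303 to 0.828 FPKM) and Ctla4 (0.398 to 0.857 against 1.14 to 4.11 FPKM) were higher in the irradiated libraries. The mast cell receptor genes Ms4a2 (0.491 to 0.598 against 0.0306 to 0.273 FPKM) and Fcer1a (0.363 to 0.531 against 0.0977 to 0.263 FPKM) were lower there. Il13 was at or near 0 (0 to 0.0665 FPKM) in all 6 libraries. Mesothelial markers (5 genes) summed to 100 to 196 against 36.8 to 88.1 FPKM. Heart muscle markers (5 genes) summed to 55.3 to 396 against 15.1 to 192 FPKM, and nerve and Schwann cell markers (5 genes), for a cell type known to use Nrg1, to 2.81 to 5.17 against 1.96 to 5.48 FPKM. The part of any of these cell types in the values of the 10 genes was not tested.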

How the data were processed

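PolyA RNA of 6 lung libraries was analysed. The values are FPKM as deposited by the authors, 1 table per library, per the file headers. The deposited coverage (signal per base) was used for depth only, and the TPM column, whose total counts named and assembled genes together, was not used. GRCm39, STAR 2.7.6a, fastp and DESeq2 appear, with no role, in the submitters' processing notes. For the step that made the tables, the annotation and the strand, nothing is given in the sources used here. Named rows were summed per gene.

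As the files hold FPKM and not counts, limma 3.58.1 (R 4.3.3) with trend and robust variance was run on log2(FPKM + 1), for genes averaging 1 FPKM or more over the 6 libraries. P-values were adjusted by Benjamini-Hochberg over all 13908 genes. Members below the filter got an exact permutation test. Procedures were tested on simulated data. The 10 members and all gene lists were chosen with earlier results of these data known. Named genes are the members and the up to 4 genes per pathway list with the smallest p; others are stated. Scalings, filters, variance estimates, the pseudocount, the replicate block and left-out libraries were tried. Python 3.11.15 and pandas 2.3.3 handled tables.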

Additional observations from a re-analysis of the deposited data

How the results depend on the processing

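No member passed under any of the 15 alternatives of the fit, so 0 of the members were called throughout; the lowest limma adjusted p was 0.0920 (Tgfa) and 0.0958 (Areg). Egfr, Btc and Nrg1 could not be tested at a minimum of 5 FPKM. Only Erbb3 and Ereg changed sign. The log2 change of Erbb3 was 0.076 with a common sum, and with each library left out it ran from −0.15 to 0.085. That of Ereg ran from −0.047 to 0.076 with each library left out. The cause of these turns was not tested. The common sum moved the median of all genes by 0.11. Over all genes 25 were called, against 0 without a filter (3531 at an unadjusted p under 0.05), 38 at 5 FPKM, 11 with median-ratio scaling, 13 with a common sum (7 higher and 6 lower, against 9 and 16) and 9 without control 2 and irradiated 2. With each library left out the count ran from 0 (without control 1 or 3) to 118 (without irradiated 3), with 1 without control 2, 3 without irradiated 2 and 101 without irradiated 1. In the ligand shedding list it was 0 to 1. With the replicate number as a block 0 genes were called (1623 at an unadjusted p under 0.05). Over all genes tested, libraries with the same number did not deviate together (correlations −0.54 to −0.17). With 3 libraries per group this cannot decide whether the number marks a pairing, which the labels do not state. For Errfi1 the SE was 0.41 without the block and 0.14 with it (limma adjusted p = 0.282 with the block).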

Other observations

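Beside the named genes, each table holds unnamed genes assembled from that library, and these give a second value at 9 of the 10 family genes in all 6 libraries. It was close to the named value: the median ratio of assembled to named FPKM over the libraries was 0.881 for Egfr and 1.00 for each of the others. The assembled Egfr gene began 2050 bases inside the annotated start in each library. Used in place of the named rows, an alternative chosen after seeing the data, the assembled rows gave a difference of 1.00 for Areg, −0.47 for Hbegf, 0.35 for Tgfa and 0.56 for Nrg1 on log2(FPKM + 1), with exact permutation p = 0.1 for each, the smallest that 3 against 3 libraries can give.

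At Nrg1 the longest assembled gene covered 18.5% of the annotated span in every library, from 32299493 to 32499824 on chromosome 8 (GRCm39), and began 882034 bases downstream of the annotated start. At Errfi1 the assembled gene began 1274 bases downstream of the annotated start in control 1 and control 2, the distance between the 2 RefSeq starts. It began at the annotated start in the other 4 libraries, which had higher Errfi1 coverage than control 1 and control 2. For Ereg an assembled gene was present in 2 libraries, control 3 and irradiated 1.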
